A study of Mus musculus with 17 samples.

Results

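*Crispld2*, *Sftpd*, *Penk*, *Stc1*, *Igfbp5*, *C1qtnf1* and *Fgf9* encode secreted proteins, and their transcripts were examined in sorted mouse pancreatic β cells that had or lacked the RNA-binding protein PCBP2. The 7 genes, of 55357 genes in the files, were chosen by the size of their fold changes with knockout or with glucose in these same libraries. Their levels and fold changes are therefore given as a description, without p-values. Other genes, listed by family or function, were tested, but the lists were not drawn up independently of these data, which limits what their p-values mean.

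The study asked how β cells adapt to high glucose and what they need PCBP2 for. Islets from male mice first recovered for 3 days in medium with a glucose concentration between those compared here. They were then cultured for 72 h in medium with 2.8 mM glucose (low glucose) or 16.7 mM glucose (high glucose). After that, β cells were sorted by their red tdTomato fluorescence, and their RNA was sequenced from low-input libraries. Control cells, labelled WT, came from mice with RIP-Cre, a Cre driven by a rat insulin promoter, and a Cre-inducible *Rosa26* tdTomato allele, and gave 3 libraries in low and 4 in high glucose. *Pcbp2* βKO cells came from RIP-Cre mice with the same tdTomato allele and loxP-flanked *Pcbp2* alleles, and gave 5 libraries at each glucose concentration. The mice were on a C57BL/6 background. Both genotypes thus carried Cre and the reporter, and a sorted cell is one in which Cre had acted on the reporter, which does not show that both *Pcbp2* alleles had recombined. The labels do not say which libraries came from the same animals, so the spread among libraries may be partly technical.

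Secreted proteins carry signals from β cells to neighbouring endocrine, vascular and immune cells, and β cells, which are built for secretion, make many besides insulin. CRISPLD2 is a secreted member of the CAP superfamily that binds lipopolysaccharide, and surfactant protein D, the product of *Sftpd*, is a collectin of innate defence best known from the lung. *Penk* encodes the precursor of the enkephalin opioid peptides, *Stc1* a glycoprotein hormone that inhibits the pappalysin proteases, *Igfbp5* a carrier of insulin-like growth factors, *C1qtnf1* an adiponectin-related protein, and *Fgf9* a fibroblast growth factor.

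The deposited libraries held 70712840 to 78719001 estimated counts in control cells in low glucose and 65070242 to 69201359 in high glucose. Knockout libraries held 47385513 to 82419400 in low and 73336033 to 81769111 in high glucose, so that levels under 0.1 CPM rest on few counts. *Pcbp2* (ENSMUSG00000056851.15) followed the labels. In counts scaled for library size (CPM), its level was 63.4, 73.4 and 50.7 in control cells in low glucose and 35.0, 45.4, 44.4 and 36.7 in high glucose. It was 19.2, 17.5, 16.8, 15.5 and 18.2 in *Pcbp2* βKO cells in low glucose and 10.03, 5.81, 6.39, 8.48 and 7.61 in high glucose. No knockout library reached the lowest control library at either concentration, and transcript remained in every knockout library. *Ins2* was the most abundant gene by mean TPM, which is scaled for transcript length too, with 195356 to 588992 TPM, and *Iapp* and *Ins1* ranked next. All 10 β-cell markers were detected, among them *Ucn3* at 129 to 646 TPM, while *Mafa* was low at 0.234 to 6.26 TPM. These are bulk libraries, in which fewer cells of a type and less RNA per cell cannot be told apart.

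3 high-glucose libraries stood apart from the others of their group. On the first principal component of log2 CPM, which held 30.0% of the variance and separated the glucose concentrations, control high-glucose replicate 4 lay at 9.87, against 97.1 to 99.1 for replicates 1 to 3. *Pcbp2* βKO high-glucose replicates 4 and 5 lay at 21.4 and 33.2, against 90.9 to 95.9 for replicates 1 to 3. Low-glucose libraries lay between -105 and -42.4. The sources used here do not say whether these libraries differed in batch, exposure or handling, and this limits what the high-glucose values and glucose changes mean. These 3 libraries were kept. Most of the members' fold changes that rest on high glucose, and the total counts of member and family calls, are given with and without them. The glucose changes of *Stc1* and *Igfbp5* in control cells are given with all libraries only. So are the interactions, except that of *Igfbp5*, and the counts of single lists. Single family genes are given without them where leaving them out ended a call or moved a value by over 1.5 times. Ratios of counts use all libraries.

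A gene was called changed when edgeR gave an adjusted p under 0.05 over all 22784 genes tested and a fold change above 1.5, and all 7 members passed the filter on low counts. With glucose in control cells, 5 of the 7 members were called (4 higher and 1 lower), where 13.8% of all genes were. With knockout, 5 members were called in high glucose, all lower, where 1.71% of all genes were, and 4 in low glucose (3 lower and 1 higher), where 2.04% were. With glucose in *Pcbp2* βKO cells, 2 members were called, 1 higher and 1 lower, beside 23.8% of all genes. Without the 3 libraries that stood apart, 7 members were called with glucose in control cells (5 higher and 2 lower), beside 4898 of 22352 genes. In that fit 6 were called with knockout in high glucose (1 higher and 5 lower), beside 587 genes. With glucose in *Pcbp2* βKO cells 4 were called there (2 higher and 2 lower), beside 6390 genes. The choice of the members fixed these counts, and nothing is read from them. The interaction of genotype and glucose, the difference between the glucose responses of the genotypes, was called by edgeR for 0 members beside 0.00439% of all genes. DESeq2 and limma also called 0 members there. The knockout and glucose comparisons share libraries and are not independent of each other. The scaling mattered for the glucose comparisons. The median log2 fold change of all genes with glucose was 0.04 in control and 0.01 in *Pcbp2* βKO cells with TMM scaling, and -0.35 and -0.47 with total counts. Member values use TMM unless another scaling is named. With limma on log2(TPM + 1) the high-glucose knockout calls of *Penk* (-2.05), *Stc1* (-0.56) and *Igfbp5* (-0.78) and the glucose call of *Stc1* in control cells (0.48) were lost.

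**Figure D1:**
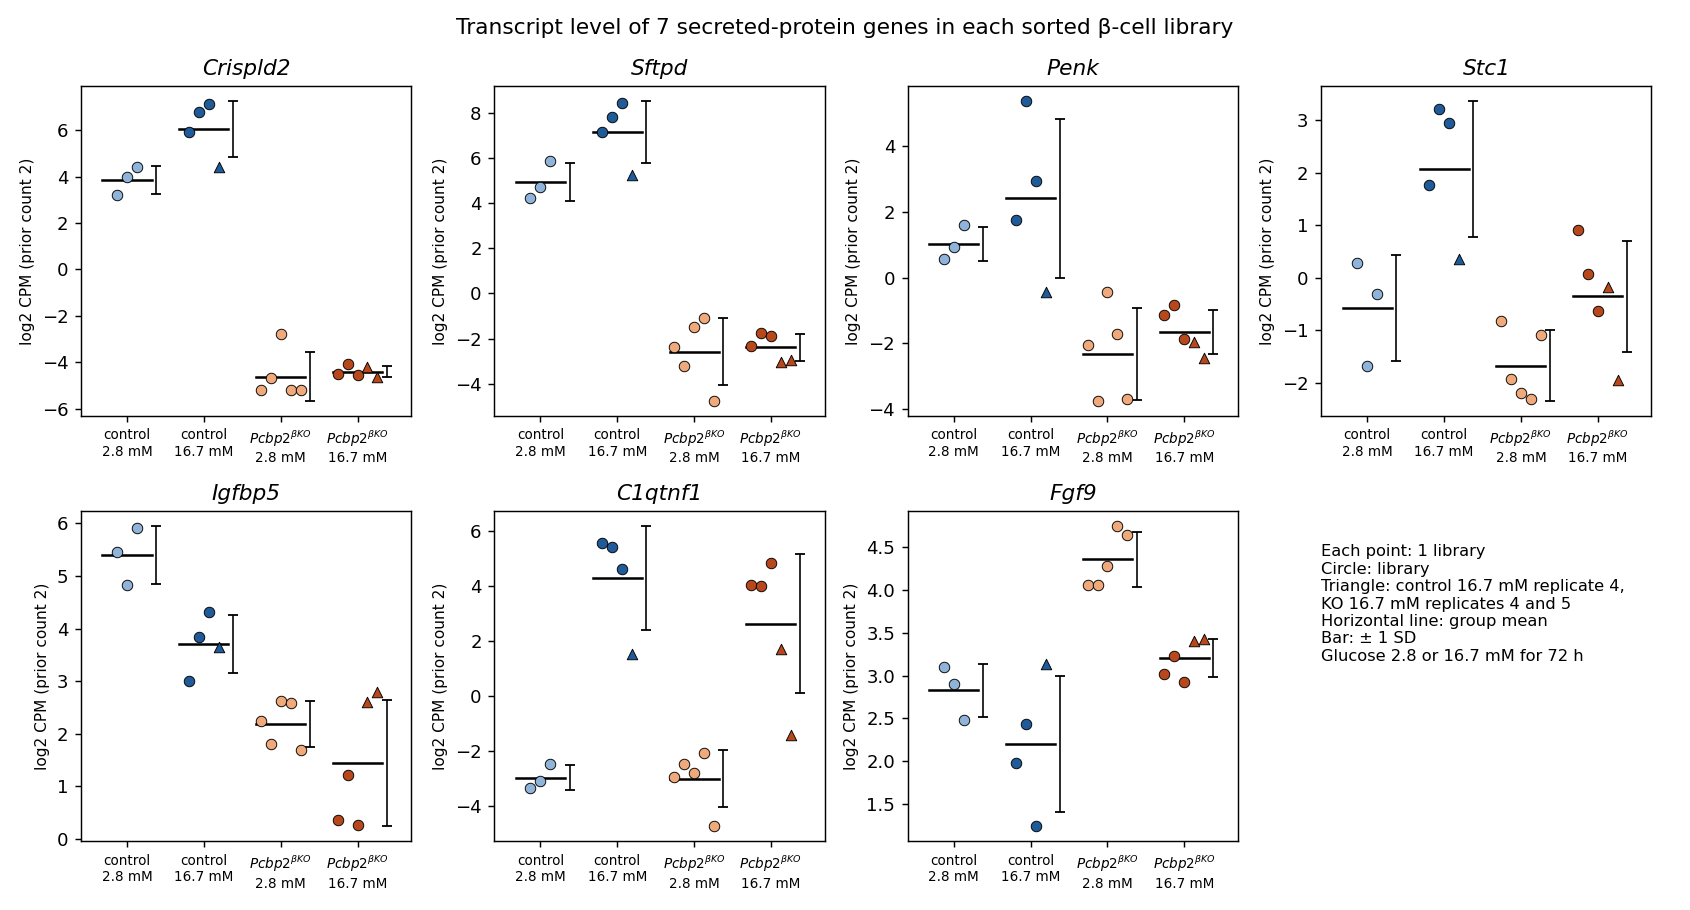
Level of the 7 genes as log2 CPM with a prior count of 2 (vertical axis) in each of the 4 groups (horizontal axis), with 1 point per library, the group mean as a line and ± 1 SD as a bar; triangles mark the 3 high-glucose libraries that stood apart. *Crispld2* and *Sftpd* are near the floor in all 10 knockout libraries, *C1qtnf1* is high only in high glucose, and *Fgf9* is highest in knockout cells in low glucose.

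*Crispld2* (ENSMUSG00000031825.17; GRCm39 chr8:120719177-120779532, plus strand) was present in control libraries and near 0 in every *Pcbp2* βKO library. In control cells it was at 9.19, 15.9 and 21.0 CPM in low glucose and 61.1, 109, 139 and 21.4 CPM in high glucose. Knockout libraries held 0, 1, 11, 0 and 0 estimated counts in low glucose and 1, 2, 1, 2 and 1 in high glucose, against 794 counts or more in every control library. All control libraries in high glucose lay above those in low glucose, although replicate 4 exceeded the highest low-glucose library only narrowly, and no knockout library came near a control library. The order of mean levels was control high glucose, control low glucose, then the knockout groups, which overlapped each other.

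Relative to library size, control cells held *Crispld2* at a ratio of 3915 (exact 95% counting interval 1899.9 to 9739.8) to *Pcbp2* βKO cells in high glucose, and of 549.9 (exact 95% counting interval 314 to 1065) in low glucose, the interval covering counting error only. The fitted log2 fold changes of -11.85 (SE 0.76) and -9.02 (SE 0.71) depend on the prior count at such low counts. So do the SEs, which were derived from the fold change and its test statistic. The former change was -12.11 (SE 0.78) without the 3 libraries. In low glucose, 11 of the 12 knockout counts came from replicate 3, and without that library the fitted change was -11.67. With glucose in control cells the fitted log2 fold change was 2.43 (SE 0.55), and 2.72 (SE 0.45) without the 3 libraries that stood apart. The knockout counts were too few to show a response, with a fitted change of -0.40 (SE 1.26), or -0.38 (SE 1.34) without the 3 libraries. The interaction was -2.83 (SE 1.42), not called, and -3.18 to -0.18 over single omissions.

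*Sftpd* (ENSMUSG00000021795.11; chr14:40894170-40907128, minus strand) showed the same picture at a higher level. Control cells held 18.6, 26.1 and 58.0 CPM in low glucose and 140.5, 224, 341 and 37.6 CPM in high glucose. *Pcbp2* βKO libraries held 15, 7, 31, 26 and 1 estimated counts in low glucose and 10, 17, 16, 7 and 8 in high glucose. Every control library was far above every knockout library, while high-glucose replicate 4 of the control cells lay within the range of the low-glucose libraries, so that the control groups overlapped. The knockout groups overlapped as well. The ratio of control to *Pcbp2* βKO cells was 1060.2 (exact 95% counting interval 820.0 to 1396) in high glucose and 187 (exact 95% counting interval 149.8 to 236) in low glucose, with fitted log2 fold changes of -10.05 (SE 0.76) and -7.44 (SE 0.70), the former -9.98 (SE 0.77) without the 3 libraries. The fitted glucose change in control cells was 2.44 (SE 0.64), or 2.75 (SE 0.53) without the 3 libraries. Its call was lost on leaving out control low-glucose replicate 1 or 2 or control high-glucose replicate 3 (range over omissions 1.97 to 3.05) and with limma on log2(TPM + 0.1) (1.41). Within the knockout the fitted change was -0.17 (SE 0.78), not called, and 0.21 (SE 0.74) without the 3 libraries. The interaction was -2.61 (SE 0.98), not called, and -3.22 to -2.14 over single omissions.

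*Crispld2* and *Sftpd* were each other's most similar gene. Among 13079 genes compared over the 17 libraries, Pearson r of log2 CPM was 0.98 between them, with *Cldn8* and *Syt10* next for *Crispld2* (0.98 and 0.97) and *Syt10* and the noncoding *Gm13716* next for *Sftpd* (0.97 and 0.97). *Cldn8*, which encodes a claudin, averaged 200.2 CPM in control and 0.105 CPM in *Pcbp2* βKO cells in high glucose. *Syt10*, a synaptotagmin, averaged 3.88 and 0.00321 CPM. Both members were chosen for fold changes in these libraries and were near the floor in every knockout library. The difference between genotypes thus enters these correlations, which are no separate evidence of a link between the genes.

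Surfactant protein D is also made by alveolar type 2 cells, so their markers were read beside it. All 5 genes of that list were detected, but its summed level was almost entirely *Abca3*, at a mean of 130.5 CPM. The defining markers *Sftpb*, *Sftpc* and *Sftpa1* held 16, 112 and 428 estimated counts over all 17 libraries together, and *Lamp3* 11. The list summed to 126, 88.7 and 118 CPM in control cells in low glucose and 205, 151, 174 and 155 CPM in high glucose. The knockout libraries summed to 99.3, 87.0, 103, 98.3 and 54.2 CPM in low glucose and 136, 153, 131, 168 and 178 CPM in high glucose. As the sum mostly followed *Abca3*, it does not measure alveolar cells. It was of similar size in both genotypes, and the part of such cells in the level of *Sftpd* was not tested.

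Of the other CAP superfamily genes, 5 of 12 passed the filter, and 0 of them were called with knockout at either concentration (edgeR), beside 1.71% of all genes in high and 2.04% in low glucose. With glucose, 2 rose and 1 fell in control cells and 1 rose and 1 fell in knockout cells, beside 13.8% and 23.8% of all genes. Of these only *Pi16* averaged 1 CPM or more over all libraries. *Pi16*, which encodes a peptidase inhibitor-like protein, fell with glucose in control cells by 1.85 on the log2 scale (SE 0.51, adjusted p = 0.0187, lower in 4 of 4 libraries). That call was kept in single omissions only for control low-glucose replicate 2 or control high-glucose replicate 3 or 4 (range over omissions -2.20 to -1.57). Of the collectins and surfactant proteins, 5 of 8 passed the filter and 0 were called with knockout (edgeR) beside those same shares, and the 1 called with glucose in control and 3 in knockout cells averaged under 1 CPM.

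*Penk* (ENSMUSG00000045573.10; chr4:4132722-4141856, minus strand) was lower in *Pcbp2* βKO cells and varied most within control cells in high glucose. It was at 1.45, 1.87 and 3.01 CPM in control cells in low glucose. In high glucose the control libraries held 3.37, 41.8, 7.68 and 0.719 CPM, where replicate 2 was far above the others and replicate 4 below all low-glucose libraries. *Pcbp2* βKO cells held 0.212, 0.0469, 0.7103, 0.278 and 0.0499 CPM in low glucose and 0.428, 0.530, 0.246, 0.228 and 0.154 CPM in high glucose, from 19, 4, 67, 16 and 5 and 25, 33, 16, 17 and 12 estimated counts. No knockout library reached a control library at the same glucose concentration. The order of mean levels was control high, control low, knockout high and knockout low glucose, and within each genotype the glucose groups overlapped. The fitted log2 fold change with knockout was -5.41 (SE 0.95) in high glucose and -3.01 (SE 0.91) in low glucose, of which only the former was called, and the former was -3.63 without control high-glucose replicate 2 and -5.45 (SE 1.004) without the 3 libraries. In low glucose the change was called when the 3 libraries were left out (-3.00, SE 0.77) and without a filter on low counts (-3.02). It was not called in any single omission (range over omissions -3.89 to -2.67).

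The fitted glucose change of *Penk* in control cells was 2.67 (SE 1.01) and was not called. It was called without the 3 libraries (3.04, SE 0.88), without control high-glucose replicate 4 alone (3.08) and in the fit with a replicate block (2.31, SE 0.52), in which that library has no partner. With all libraries it was called by DESeq2 (2.67) and without a filter (2.62). It was 0.90 without control high-glucose replicate 2, the highest library. Within the knockout it was 0.27 (SE 0.86), not called, and 0.58 (SE 0.84) without the 3 libraries, and it turned below 0 with total counts or TPM while staying above the median of all genes. The interaction was -2.39 (SE 1.29), not called, and -2.80 to -0.62 over single omissions. The most similar genes by Pearson r were *Snhg11* (0.94), *Slc23a2* (0.91) and *Sftpd* (0.90). *Snhg11* is a noncoding host gene of small nucleolar RNAs, and *Slc23a2* encodes an ascorbate transporter.

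Among the other opioid precursors and receptors, 6 of 7 passed the filter. *Pdyn*, the precursor of the dynorphins, rose with glucose by 6.28 (SE 0.80, adjusted p = 3.37e-04, 4 of 4 libraries) on the log2 scale in control cells and by 6.73 (SE 0.65, adjusted p = 2.81e-06, 5 of 5 libraries) in *Pcbp2* βKO cells. Its mean went from 5.61 to 435 CPM in control and from 3.69 to 390.3 CPM in *Pcbp2* βKO cells, and the calls held in each single omission. With knockout, 0 of the list were called at either concentration (edgeR), beside 1.71% of all genes in high and 2.04% in low glucose.

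*Stc1* (ENSMUSG00000014813.10; chr14:69266575-69279253, plus strand) was higher in high than in low glucose in control cells. It was at 1.19, 0.284 and 0.777 CPM in control cells in low glucose and 3.35, 9.19, 7.71 and 1.26 CPM in high glucose. *Pcbp2* βKO cells held 0.536, 0.235, 0.191, 0.173 and 0.439 CPM in low glucose and 1.85, 1.03, 0.616, 0.857 and 0.231 CPM in high glucose. All control libraries in high glucose were above those in low glucose, with replicate 4 only just so. Between the genotypes the libraries overlapped at both concentrations, and in high glucose the overlap came from control replicate 4 and knockout replicate 1. In the order control high, knockout high, control low and knockout low glucose, each group overlapped the next.

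The fitted glucose change of *Stc1* was 2.84 (SE 0.72) in control cells, called, and 1.52 (SE 0.57) in *Pcbp2* βKO cells, not called, although called without the 3 libraries (1.83, SE 0.50) and without knockout low-glucose replicate 1 or knockout high-glucose replicate 5 alone (up to 1.79). With all libraries it was called by DESeq2 (1.52) and without a filter. The call in control cells was lost on leaving out control low-glucose replicate 2 (range over omissions 2.45 to 3.33). Without the 3 libraries *Stc1* was called in control cells, as all 7 members were. With knockout in high glucose the fitted change was -2.56 (SE 0.59), and -2.54 (SE 0.58) without the 3 libraries. That call was kept in single omissions only for control high-glucose replicate 1 or 4 or knockout high-glucose replicate 1 (range over omissions -2.98 to -2.17). In low glucose it was -1.24 (SE 0.64), not called, and the interaction was -1.32 (SE 0.88), not called. The most similar genes were *Cldn23* (0.95), *Map2k3* (0.92) and *Sqle* (0.92), of which *Sqle* encodes squalene epoxidase of cholesterol synthesis, *Map2k3* a kinase of the p38 pathway and *Cldn23* a claudin.

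Ductal markers were highest in the control library that was highest for *Penk* and *Stc1*. All 5 genes of the list were detected, with *Krt7* most abundant at a mean of 447 CPM. They summed to 543, 490.3 and 474 CPM in control low and 770.2, 1183, 597 and 414 CPM in control high glucose, with replicate 2 highest. Knockout cells held 530.1, 466, 550.0, 565 and 451 CPM in low and 558, 596, 471, 463 and 384 CPM in high glucose. Their part in the levels of *Penk* and *Stc1* was not tested.

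All 3 other genes of the stanniocalcin and pappalysin list were tested. *Pappa2*, a protease that cleaves binding proteins of insulin-like growth factors, rose with glucose by 4.01 (SE 0.88, adjusted p = 0.00586, 4 of 4 libraries) on the log2 scale in control cells and by 3.05 (SE 0.66, adjusted p = 0.00197, 4 of 5 libraries) in *Pcbp2* βKO cells. It was called in each single omission in both genotypes. Its mean was 5.44 CPM in low and 87.8 CPM in high glucose in control cells, and 17.3 and 143 CPM in *Pcbp2* βKO cells. With knockout, 1 gene of the list was called in low glucose, beside 2.04% of all genes, and 0 in high glucose (edgeR), beside 1.71%. It was *Pappa*, named after its values were seen, which fell by 3.08 (SE 0.65, adjusted p = 0.0143, 5 of 5 libraries), from a mean of 1.10 to 0.132 CPM.

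*Igfbp5* (ENSMUSG00000026185.9; chr1:72897091-72914043, minus strand) was lower in *Pcbp2* βKO than in control cells at both concentrations, and lower in high than in low glucose in control cells. Control cells held 43.8, 28.4 and 60.3 CPM in low glucose and 7.995, 14.4, 19.99 and 12.5 CPM in high glucose. *Pcbp2* βKO cells held 4.69, 3.45, 6.12, 5.95 and 3.20 CPM in low glucose and 1.25, 2.30, 1.17, 6.02 and 6.87 CPM in high glucose. The control groups did not overlap each other or the knockout groups. In knockout cells in high glucose, replicates 4 and 5 were above replicates 1 to 3, and replicate 5 was above all low-glucose libraries, so the knockout groups overlapped. The order of means was control low, control high, knockout low and knockout high glucose.

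The fitted log2 fold change of *Igfbp5* with knockout was -3.24 (SE 0.49) in low glucose, called in each single omission. In high glucose it was -1.96 (SE 0.45), but -3.17 (SE 0.40) without the 3 libraries. The former call was kept in single omissions only for control high-glucose replicate 1 or 4 or knockout high-glucose replicate 4 or 5 (range over omissions -2.35 to -1.72), and it was also lost with total counts (-1.88). With glucose it was -1.69 (SE 0.51) in control cells, a call kept in single omissions only for control low-glucose replicate 2 or control high-glucose replicate 3 or 4 (range over omissions -1.93 to -1.40). That change was also called without the 3 libraries, where all 7 members were. Within the knockout the glucose change was -0.40 (SE 0.43), not called, and -1.61 (SE 0.36), called, without the 3 libraries. It was called with limma on log2(TPM + 0.1) too (-1.32), where the median of all genes was -0.71. The interaction was 1.28 (SE 0.66), and 0.06 (SE 0.50) without the 3 libraries, and neither was called. The most similar genes were *Dab1* (0.93), *Tnip1* (0.91) and *Gbp11* (0.91). *Dab1* encodes an adaptor of reelin signalling, *Tnip1* an inhibitor of NF-κB signalling and *Gbp11* a guanylate-binding protein.

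Macrophage markers also differed among the knockout libraries in high glucose. The list of 5 genes, all detected and led by *C1qa* at a mean of 49.997 CPM, summed to 29.5, 21.2, 35.4, 69.4 and 110.2 CPM there, highest in replicates 4 and 5, and to 154, 44.3, 109.6, 113 and 165 CPM in low glucose. In control cells it summed to 151, 84.6 and 123 CPM in low glucose and 92.2, 38.5, 105 and 80.0 CPM in high glucose. The genes of the list did not move together. With glucose in knockout cells *C1qa* was called higher (1.47) and the other 4 were called lower (-4.42 to -2.11). With knockout in low glucose *C1qa* alone was called, lower (-2.25). The part of these cells in the level of *Igfbp5* was not tested. Stellate and fibroblast markers, cells that can also make this protein, had 8 of 8 genes detected and summed to at most 1.51, 1.55, 2.71 and 5.36 CPM in control low, control high, knockout low and knockout high glucose, with *Dcn* the most abundant. In knockout high-glucose replicate 2 that sum was above the level of *Igfbp5*, and in every other library below it.

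Of the 12 other ligands, binding proteins and receptors of the insulin-like growth factor system, 9 were tested. *Igf1r*, the receptor, rose with glucose by 1.497 (SE 0.27, adjusted p = 0.00177, 4 of 4 libraries) on the log2 scale in control and by 1.47 (SE 0.22, adjusted p = 8.27e-05, 5 of 5 libraries) in *Pcbp2* βKO cells, and kept its call in each single omission. *Igfals*, whose product holds these growth factors in a ternary complex in serum, fell with knockout by 0.80 (SE 0.19, adjusted p = 0.0365, 5 of 5 libraries) in high glucose and by 0.89 (SE 0.20, adjusted p = 0.0260, 5 of 5 libraries) in low glucose. The high-glucose call was kept in single omissions only for control high-glucose replicate 4 (range over omissions -0.995 to -0.69), and the low-glucose call kept in single omissions only for control low-glucose replicate 2 or knockout low-glucose replicate 1 or 3 (range over omissions -0.995 to -0.80). *Igfbp4* fell with glucose in knockout cells by 0.80 (SE 0.27, adjusted p = 0.0297, 5 of 5 libraries). That call was kept in single omissions only for knockout low-glucose replicate 1, 3 or 4 or knockout high-glucose replicate 4 (range over omissions -0.99 to -0.70), and its direction turned when counts were scaled by transcript length.

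*C1qtnf1* (ENSMUSG00000017446.15; chr11:118318941-118342605, plus strand) was close to absent in low glucose and present in high glucose in both genotypes. In low glucose the estimated counts were 6, 7 and 14 in control and 9, 13, 11, 12 and 1 in *Pcbp2* βKO libraries. In high glucose it reached 47.1, 42.3, 24.0 and 2.80 CPM in control and 16.2, 15.6, 28.5, 3.22 and 0.347 CPM in *Pcbp2* βKO cells. Every high-glucose library was above every low-glucose library. The lowest values in high glucose were those of the 3 libraries that stood apart, control replicate 4 and knockout replicates 4 and 5. In high glucose the genotypes overlapped, and in low glucose they overlapped too.

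Relative to library size, *C1qtnf1* in high glucose stood at a ratio of 256 (exact 95% counting interval 176 to 389) to low glucose in control cells and 111 (exact 95% counting interval 82.9 to 151) in *Pcbp2* βKO cells. The fitted log2 fold changes were 8.09 (SE 1.37) and 6.81 (SE 1.03), and 8.45 (SE 0.58) and 7.44 (SE 0.45) without the 3 libraries. With knockout the fitted changes of -1.19 (SE 0.79) in high glucose, or -0.92 (SE 0.40) without the 3 libraries, and 0.09 (SE 1.28) in low glucose were not called. The interaction was -1.27 (SE 1.52), not called. The most similar genes were *Gm31373* (0.98), *Thrsp* (0.98) and *Syt5* (0.98). *Thrsp* encodes a lipogenic protein and *Syt5* a synaptotagmin of secretory vesicles, and the means of *Syt5* were 22.1 and 152 CPM in control cells in low and high glucose.

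Of the 19 other C1q/TNF family genes and adiponectin receptors, 10 were tested. *Adipor1*, an adiponectin receptor, fell with glucose by 0.69 (SE 0.19, adjusted p = 0.0204, 4 of 4 libraries) in control and by 0.61 (SE 0.16, adjusted p = 0.00690, 5 of 5 libraries) in knockout cells. The first of these calls was kept in single omissions only for control high-glucose replicate 3 or 4 (range over omissions -0.84 to -0.57), the other lost on leaving out knockout low-glucose replicate 4 or knockout high-glucose replicate 3 or 5 (range over omissions -0.68 to -0.55). Within the knockout *C1qtnf6* rose by 1.08 (SE 0.33, adjusted p = 0.0182, 5 of 5 libraries) and *C1qtnf4* fell by 0.90 (SE 0.23, adjusted p = 0.00680, 5 of 5 libraries). The calls of the list with glucose numbered 1 in control and 4 in knockout cells, beside 13.8% and 23.8% of all genes. With knockout, 0 were called at either concentration (edgeR), beside 1.71% in high and 2.04% in low glucose.

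*Fgf9* (ENSMUSG00000021974.16; chr14:58308004-58350316, plus strand) was the member with higher levels in *Pcbp2* βKO cells. In low glucose, control cells held 8.53, 7.45 and 5.57 CPM and *Pcbp2* βKO cells 16.7, 16.6, 19.4, 26.7 and 25.0 CPM. In high glucose, control cells held 3.93, 5.36, 2.34 and 8.74 CPM and *Pcbp2* βKO cells 8.09, 9.34, 7.59, 10.5 and 10.8 CPM. In low glucose every knockout library was above every control library. In high glucose the genotypes overlapped through control replicate 4, which was the highest control library. Within the knockout, every low-glucose library was above every high-glucose library. Knockout low glucose was thus the highest group, and knockout high, control low and control high glucose followed, each overlapping the next.

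The fitted log2 fold change of *Fgf9* with knockout was 1.54 (SE 0.32) in low glucose, called, and 0.86 (SE 0.28) in high glucose, not called. The low-glucose call was lost on leaving out control low-glucose replicate 2 or 3 (range over omissions 1.38 to 1.68). In high glucose the change was called without the 3 libraries (1.10, SE 0.28), without control replicate 4 alone (1.25) and with length-scaled counts (1.24). With glucose it was -1.17 (SE 0.26) in *Pcbp2* βKO cells, or -1.36 (SE 0.26) without the 3 libraries, called in each single omission, and -0.49 (SE 0.32) in control cells, not called. The latter was called without the 3 libraries (-0.91, SE 0.28), without control high-glucose replicate 4 alone (-0.88) and in the fit with a replicate block, in which that library has no partner (-0.94, SE 0.23). Limma called it on log2(TPM + 0.1) (-1.38) and on log2(TPM + 1) (-0.98), where the median of all genes was -0.56 and -0.24. The interaction of -0.68 (SE 0.41) was not called. The most similar genes were *Gm29054* (0.94), *2510046G10Rik* (0.92) and *Uba2* (0.92), of which *Uba2* encodes a subunit of the enzyme that activates SUMO.

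Markers of other islet cells were also highest in *Pcbp2* βKO cells in low glucose. The PP-cell list, *Ppy* and *Pyy*, summed to 1163, 1111 and 1208 CPM in control cells in low glucose and 516, 491, 368 and 999 CPM in high glucose. Knockout cells held a sum of 1431, 2163, 2351, 3670.4 and 7425 CPM in low glucose and 577, 730.3, 470.3, 1295 and 1456 CPM in high glucose. The α-cell list (5 of 5 detected, *Gcg* most abundant) summed to 1570.1 to 9438 CPM in that group, and to 691 to 2623, 538 to 1572 and 953 to 1812 CPM in control low, control high and knockout high glucose. The δ-cell list (4 of 4, *Sst* most abundant) summed to 481 to 1319.6 CPM there and to 251 to 391, 148 to 336 and 198 to 566 CPM in the others. These sums moved in the same direction as *Fgf9* between the knockout groups, and their part in its level was not tested.

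Of 21 other FGF genes, not all of which encode secreted ligands, 8 were tested, with 7 receptors and co-receptors. With glucose, 1 FGF gene and 0 receptors were called in control cells and 3 and 3 in knockout cells, beside 13.8% and 23.8% of all genes. With knockout, 0 FGF genes were called at either concentration (edgeR) and 1 receptor gene at each, beside 1.71% and 2.04% of all genes. With glucose *Fgf12*, whose product stays within the cell, rose by 1.11 (SE 0.35, adjusted p = 0.0398, 4 of 4 libraries) in control and 1.19 (SE 0.29, adjusted p = 0.00430, 5 of 5 libraries) in *Pcbp2* βKO cells. The call in control cells was kept in single omissions only for control high-glucose replicate 4 (range over omissions 0.82 to 1.35). *Fgf21*, an endocrine ligand, fell with glucose in knockout cells by 1.52 (SE 0.35, adjusted p = 0.00314, 5 of 5 libraries), the same direction as *Fgf9*. Among the 7 receptors and co-receptors, *Klb*, the co-receptor for FGF21, fell with knockout in high glucose by 1.89 (SE 0.37, adjusted p = 0.00871, 5 of 5 libraries), in each single omission as well. *Kl* fell with knockout in low glucose by 1.66 (SE 0.38, adjusted p = 0.0243, 5 of 5 libraries), a call kept in single omissions only for control low-glucose replicate 1 or knockout low-glucose replicate 2 (range over omissions -1.85 to -1.36), and rose with glucose in knockout cells by 1.68 (SE 0.35, adjusted p = 0.00127, 5 of 5 libraries). *Fgfr2* fell with glucose in knockout cells by 1.66 (SE 0.57, adjusted p = 0.0342, 5 of 5 libraries). That call was lost on leaving out knockout low-glucose replicate 2 or knockout high-glucose replicate 1, 3, 4 or 5 (range over omissions -1.93 to -0.63) and lost without the 3 libraries (adjusted p = 0.131).

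Genes that FGF and other receptor kinases switch on, feedback inhibitors and ETS transcription factors among them, were tested as a list of 8. With glucose, 3 rose and 0 fell in control cells, and 4 rose and 1 fell in *Pcbp2* βKO cells, beside 13.8% and 23.8% of all genes called in either direction. *Spry4* rose by 3.85 (SE 0.62, adjusted p = 9.36e-04, 4 of 4 libraries) and 3.81 (SE 0.49, adjusted p = 2.70e-05, 5 of 5 libraries), *Dusp6* by 3.36 (SE 0.78, adjusted p = 0.00814, 4 of 4 libraries) and 3.05 (SE 0.61, adjusted p = 0.00109, 5 of 5 libraries), in control and *Pcbp2* βKO cells. Within the knockout *Etv5* also rose, by 1.79 (SE 0.45, adjusted p = 0.00583, 4 of 5 libraries). The median log2 fold change of the list was 1.46 and 1.09, beside 0.04 and 0.01 for all genes. *Fgf9* itself was lower with glucose, and was called in knockout cells only. With knockout, 0 of the 8 were called at either concentration (edgeR), beside 1.71% and 2.04% of all genes, where *Fgf9* was higher in low glucose.

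Other secreted factors, 25 genes of which 22 were tested, came from a list drawn up with earlier results of these data known. In low glucose 3 were called lower and 0 higher, and in high glucose 5 lower and 0 higher, with list medians of -0.40 and -0.07, beside 2.04% and 1.71% of all genes called in either direction. Most of the list was not called. *Npy*, which encodes a neuropeptide, fell by 5.71 (SE 0.81, adjusted p = 4.22e-04, 5 of 5 libraries) in low and 2.79 (SE 0.69, adjusted p = 0.0450, 5 of 5 libraries) in high glucose, and *Tnfrsf11b*, which encodes the decoy receptor osteoprotegerin, by 5.00 (SE 0.59, adjusted p = 5.02e-05, 5 of 5 libraries) and 4.08 (SE 0.55, adjusted p = 2.70e-04, 5 of 5 libraries). The osteoprotegerin gene averaged 90.3 CPM in control and 5.36 CPM in *Pcbp2* βKO cells in high glucose, with no overlap. *Enpp2*, the gene for autotaxin, fell in low glucose by 3.05 (SE 0.37, adjusted p = 7.06e-05, 5 of 5 libraries), from a mean of 1959 to 236 CPM. It was called in high glucose too. *Apob* fell in high glucose by 3.62 (SE 0.85, adjusted p = 0.0337, 5 of 5 libraries). The high-glucose call of *Apob* was kept in single omissions only for control high-glucose replicate 1 or 4 or knockout high-glucose replicate 2 (range over omissions -4.45 to -2.21), and that of *Npy* kept in single omissions only for control high-glucose replicate 2 or 4 or knockout high-glucose replicate 5 (range over omissions -3.67 to -2.44).

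With glucose, 4 of these factors rose and 3 fell in control cells, and 8 rose and 3 fell in *Pcbp2* βKO cells, beside 13.8% and 23.8% of all genes called. *Nptx2*, a neuronal pentraxin, rose by 4.53 (SE 0.77, adjusted p = 0.00132, 4 of 4 libraries) and 4.55 (SE 0.61, adjusted p = 3.55e-05, 5 of 5 libraries), and *Apob* by 4.93 (SE 1.13, adjusted p = 0.00746, 4 of 4 libraries) and 3.16 (SE 0.87, adjusted p = 0.0101, 5 of 5 libraries), in control and *Pcbp2* βKO cells. Over single omissions *Apob* was at 3.52 to 5.34 in control and 2.33 to 3.86 in *Pcbp2* βKO cells, called in each. *Vgf*, which encodes a granule protein, rose in control cells by 2.65 (SE 0.86, adjusted p = 0.0429, 3 of 4 libraries), a call kept in single omissions only for control high-glucose replicate 4 (range over omissions 2.33 to 3.14). It was called in knockout cells too, where *Npy* rose by 2.96 (SE 0.71, adjusted p = 0.00380, 5 of 5 libraries). That change of *Npy* was 2.08 to 3.57 over single omissions, called in each. Of the growth factor genes, *Pdgfa* fell by 1.74 (SE 0.43, adjusted p = 0.0107, 4 of 4 libraries) with glucose in control cells and fell by 1.21 (SE 0.36, adjusted p = 0.0157, 5 of 5 libraries) in knockout cells. *Wnt4* fell by 1.72 (SE 0.42, adjusted p = 0.0101, 4 of 4 libraries) and, in knockout cells, fell by 0.94 (SE 0.35, adjusted p = 0.0491, 4 of 5 libraries), and *Vegfb* fell by 0.91 (SE 0.22, adjusted p = 0.00939, 4 of 4 libraries) in control cells. Without control low-glucose replicate 2 the calls of *Pdgfa* (-0.95 at its smallest), *Wnt4* (-2.03 to -1.48) and *Vegfb* (-0.98 to -0.81) in control cells were lost. In the knockout the call of *Pdgfa* was lost on leaving out knockout low-glucose replicate 2 (range over omissions -1.30 to -0.96), and that of *Wnt4* kept in single omissions only for knockout low-glucose replicate 4 or 5 or knockout high-glucose replicate 5 (range over omissions -1.43 to -0.69). *Gdf15*, which encodes a stress-responsive cytokine, fell by 1.47 (SE 0.36, adjusted p = 0.00449, 5 of 5 libraries) in knockout cells. Without the 3 libraries the knockout values of *Wnt4* and *Gdf15* were -1.59 and -2.27.

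Over all family lists, 83 of 122 genes were tested. With glucose in control cells 14 rose and 6 fell, with a median log2 fold change of 0.02 beside 0.04 for all genes, of which 13.8% were called. The balance of directions turned with the scaling, with 11 up and 13 down with total counts and 7 up and 22 down with limma on log2(TPM + 0.1), where the median of all genes was -0.35 and -0.56. Without the 3 libraries 30 were called. A fit with replicate number as a block was also made, although no source used says that the numbers pair libraries. In it 37 of 73 were called. That fit used the control libraries alone, and control high-glucose replicate 4 has no partner in it. Leaving out that library alone gave 28, so the difference cannot be put down to the block alone. Leaving out control low-glucose replicate 1, 2 or 3 gave 10, 11 and 13 calls, and control high-glucose replicate 2 gave 11. With glucose in knockout cells 23 rose and 14 fell, with a median of -0.17 beside 0.01 for all genes, of which 23.8% were called, and 40 were called without the 3 libraries. There too total counts gave 18 up and 27 down and limma on log2(TPM + 0.1) 6 up and 34 down, with medians of all genes of -0.47 and -0.71. The number of calls thus depended on the libraries used, more in control than in knockout cells.

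With knockout, the calls in the family lists were lower in *Pcbp2* βKO cells in the edgeR fit. With DESeq2 1 was called higher in low glucose. The lower calls numbered 7 in high glucose, with a median of -0.08, and 6 in low glucose, with a median of 0.01, beside 0.01 and 0.03 for all genes, of which 1.71% and 2.04% were called, while 323 of the 389 and 406 of the 464 genes called overall were lower. In high glucose 9 were called without the 3 libraries, 11 without control replicate 4 alone, and 4 without control replicate 3 or knockout replicate 1 or 3. Leaving out control low-glucose replicate 2 or 3, or knockout low-glucose replicate 4 or 5, gave 4 in low glucose. For the interaction, 0 family genes were called by edgeR, DESeq2 or limma, and 6 had an unadjusted p under 0.05 in edgeR.

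**Figure D2:**
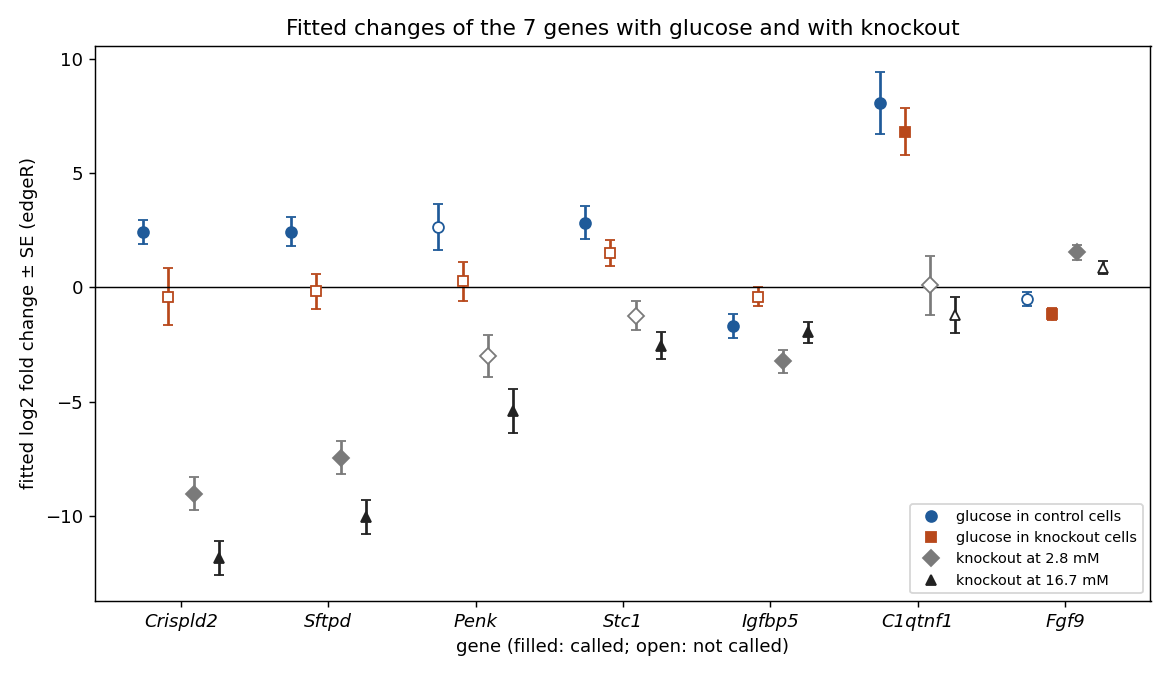
Fitted log2 fold change of the 7 genes (vertical axis) with its SE as a bar, for glucose in control cells, glucose in knockout cells, knockout in low glucose and knockout in high glucose. Filled symbols were called and open symbols were not; *Crispld2* and *Sftpd* have the lowest values with knockout and *C1qtnf1* the highest with glucose.

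Per length, *Sftpd* was the most abundant member in control cells, at a mean of 90.3 TPM in high glucose, followed by *Crispld2* at 13.3, *Penk* at 7.13 (median 3.11), *C1qtnf1* at 6.74 (median 7.73), *Fgf9* at 1.75, *Igfbp5* at 1.26 and *Stc1* at 0.680 TPM. The mean of *Penk* rested on control replicate 2, and by the medians *C1qtnf1* was above it. In *Pcbp2* βKO cells in high glucose *Fgf9* led at 3.697 TPM, followed by *C1qtnf1* at 2.92 and *Igfbp5* at 0.311 TPM, and the other 4 were lower. In low glucose the leading member was *Sftpd* in control cells, at 30.4 TPM, and *Fgf9* in *Pcbp2* βKO cells, at 14.0 TPM. TPM values also carry the share that insulin transcripts take of each library. Acinar and endothelial lists, with 6 of 6 and 5 of 5 genes detected and led by *Cela2a* and *Pecam1*, summed to at most 0.525 and 1.27 CPM in any library.

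Which transcript of a gene was used does not follow from its total, so transcript shares could be tested. *Crispld2*, *Penk* and *Fgf9* had a second transcript at 5% or more of their counts. The transcript *Crispld2-203*, the most abundant of its gene with 44.4% of the counts, held 41.8, 40.5 and 35.1% in control cells in low glucose and 33.4, 43.3, 52.1 and 44.7% in high glucose. The groups overlapped, and the mean differed by 4.27 percentage points (exact permutation p = 0.371). *Penk-201* held 72.5, 85.5 and 82.5% in low and 78.8, 80.6 and 75.4% in high glucose in the control libraries with at least 50 counts, a difference of -1.88 percentage points (exact permutation p = 0.7). That comparison of 3 with 3 libraries cannot go below 0.1, nor the one of 3 with 4 for *Crispld2* below 0.0571. Shares between similar transcripts rest on how Kallisto divided reads among them.

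*Fgf9-201* could be compared in all 4 groups. It held 59.7, 49.7 and 60.4% of the gene's counts in control low, 53.6, 54.4, 60.4 and 60.3% in control high, 56.4, 52.7, 61.6, 68.3 and 48.3% in knockout low and 50.5, 69.6, 62.8, 38.8 and 58.4% in knockout high glucose, and all groups overlapped. The group means lay between 56.0% and 57.5%. Glucose in *Pcbp2* βKO cells shifted the mean by -1.43 percentage points (exact permutation p = 0.849) and knockout in low glucose by 0.859 percentage points (exact permutation p = 0.875), where the smallest p the test can give is 0.00794 and 0.0357. As shares of TPM the shifts were larger, -12.25 points with glucose in knockout cells and -15.44 points with knockout in high glucose, against -1.16 by counts, and these were not called either. Over the 6 tests by counts the adjusted p was 0.886 throughout. With 3 to 5 libraries per group and shares that spread this widely, only large shifts could have been detected.

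The bases before the start of *Crispld2* and *Sftpd* are shown because these genes had the most similar levels over the libraries, a choice made after the values were seen. They are the 250 bases before the most abundant transcript, read from GRCm39 with the GENCODE vM39 annotation, 5′ to 3′ on the gene's strand, with matches to the motifs searched in capitals.
*Crispld2*, chr8:120718927-120719176, plus strand: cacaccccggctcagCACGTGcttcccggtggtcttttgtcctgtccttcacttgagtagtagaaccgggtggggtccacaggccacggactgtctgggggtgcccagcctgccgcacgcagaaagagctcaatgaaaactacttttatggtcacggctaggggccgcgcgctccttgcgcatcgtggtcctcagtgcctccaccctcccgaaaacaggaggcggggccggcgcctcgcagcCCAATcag
*Sftpd*, chr14:40907129-40907378, minus strand: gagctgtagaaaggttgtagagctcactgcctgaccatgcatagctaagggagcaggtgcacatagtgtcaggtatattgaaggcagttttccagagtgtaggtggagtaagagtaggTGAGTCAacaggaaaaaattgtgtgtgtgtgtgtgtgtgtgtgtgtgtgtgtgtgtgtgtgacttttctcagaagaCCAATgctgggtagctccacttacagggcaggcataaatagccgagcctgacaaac

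The 6 motifs, searched on both strands in the same window of 14440 tested protein-coding genes, were TATAAA (in 8.32% of windows), CCAAT (35.5%), CACGTG (7.33%), TGACGT (7.42%), TGACTCA (3.46%) and TGCGTCA (2.10%). CCAAT began 8 bases before the start of *Crispld2* and 56 before that of *Sftpd*. CACGTG, the E-box that several glucose-responsive factors bind, began 235 bases before *Crispld2*, and TGACTCA, the AP-1 element, matched on the opposite strand 132 bases before *Sftpd*. The windows differed in G and C content, 63.2% and 47.6% beside a median of 55.6%. Of the other members, TGACGT was found before *C1qtnf1*, TATAAA before *Stc1* and CCAAT before *Fgf9* and *Stc1*. A match describes the letters and is not a site of binding, which was not measured.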

How the data were processed

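RNA was sequenced in 17 libraries of sorted β cells. The authors quantified reads with Kallisto against GRCm39 (mm39), and the deposited files give estimated counts and TPM for 142376 transcripts, so reads shared by similar transcripts were divided by that model. The Kallisto version is not given in the sources used here. Estimated counts were summed per gene, rounded, filtered with filterByExpr by the 4 groups, scaled by TMM and fitted with edgeR 4.0.16 (glmQLFit and glmQLFTest, R 4.3.3), 1 mean per group, with Benjamini-Hochberg adjustment over all genes tested. The authors' own fit had a batch factor, whose levels are not given in the sources used here. The SE of a fitted change is its absolute log2 fold change divided by the square root of its F statistic. It is approximate, most of all where counts are few. The deposited TPM values were summed per gene. DESeq2 1.42.0 and limma 3.58.1 served as alternatives, beside other scalings, no filter, a replicate block and single omissions. Transcript shares used exact permutation tests in Python 3.11.15 in samples with at least 50 counts.

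Named were the 7 members, the called family genes (at most 3 per list and direction by size, with a mean of 1 CPM or more), the 3 most similar genes by Pearson r, *Pcbp2*, and markers that lead a list or define its cell type. *Pappa*, with a mean of 0.628 CPM over all libraries, was named outside this rule, and its single omissions are not given here. The members and gene lists were chosen with earlier results of these data known. Deviations of same-numbered control libraries in low and high glucose correlated at 0.20, 0.12 and 0.26. Replicate 4 of control and of knockout cells in high glucose, which differ in genotype, correlated at 0.35. These values therefore do not show that the numbers pair libraries. In the other comparisons at least 1 pair was under 0.1. Annotated exons of *Penk*, *C1qtnf1*, *Sftpd* and *Stc1* overlap opposite-strand genes that held 23, 30, 13 and 5 counts in all libraries together, which without strand cannot be told apart. No source used says that the libraries came from separate animals, so p-values measure the spread between libraries. Counting intervals cover counting error only.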

Additional observations from a re-analysis of the deposited data

Results flagged for a closer look

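*Penk* in control high-glucose replicate 2 lay far from the other 3 libraries of its group. It was at 41.8 CPM, the next library was at 7.68 CPM, and this gap was 0.831 of the range of the group. *Crispld2* in *Pcbp2* βKO low-glucose replicate 3 was at 0.117 CPM, from 11 counts, and the next library at 0.0117 CPM, a gap of 0.899 of the range. Of 25 sets of 4 or 5 libraries examined, 2 had such a library, and chance gives about 1 in 20.

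1 gene of all those tested was called in the interaction of genotype and glucose. It was *Ins1*, one of the β-cell markers, with a log2 value of 2.78 (SE 0.36, edgeR adjusted p = 0.00902), named after its value was seen. The number of genes called was 0 without control low-glucose replicate 3 and with limma on log2(TPM + 1), 15 without a filter and 32 with DESeq2. The glucose response of *Ins1* was larger in *Pcbp2* βKO than in control cells. No member or family gene was called in that comparison by edgeR, DESeq2 or limma.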

How the results depend on the processing

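Of 931 values under an alternative, 642 fold changes and shares kept their direction and their call, and 190 counts of calls stayed within 1.5 times. The cause of the changes was not tested. Family genes called with glucose in control cells numbered 37 in the fit with the replicate block, against 20. That fit used the control libraries alone, tested 19826 genes, and leaves control high-glucose replicate 4 without a partner, so the change is not that of the block alone. Those with knockout in high glucose numbered 12 with the block, 12 with DESeq2 and 11 without a filter, against 7. With limma on log2(TPM + 1), 21 rather than 37 family genes were called with glucose in *Pcbp2* βKO cells, 3 rather than 6 with knockout in low glucose, and 2 rather than 5 members with knockout in high glucose. Without the 3 libraries that stood apart, 4 rather than 2 members were called with glucose in *Pcbp2* βKO cells. With glucose in control cells the block fit also called *Penk* and *Fgf9*, as did leaving out control high-glucose replicate 4. With knockout in high glucose the block called *Fgf9* (0.91), and it changed no other member's call. With the block 1 family gene was called higher with knockout at each concentration, *Wnt4* was not called with glucose in *Pcbp2* βKO cells (adjusted p = 0.0580), and 13 genes were called in the interaction.

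Leaving out 1 library at a time gave 3 to 7 members and 10 to 28 family genes called with glucose in control cells, and 3 to 6 and 4 to 11 with knockout in high glucose. With knockout in low glucose it gave 3 to 4 and 4 to 6, and with glucose in *Pcbp2* βKO cells 2 to 3 and 30 to 38. *Penk* shares in control cells could not be compared where a group fell to under 3 libraries.

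The 27 values of members that changed sign belonged to changes that were not called, and of the named family genes the called *Igfbp4* changed sign. With glucose in *Pcbp2* βKO cells, *Penk* was at -0.26 with total counts and -0.30 and -0.12 with limma on log2(TPM + 0.1) and log2(TPM + 1), and -0.00155 to 1.15 over single omissions. *Crispld2* was at 0.11 and 0.0113 with limma and 1.98 with length-scaled counts, and -0.75 to 2.25 over omissions. *Sftpd* was at 0.21 without the 3 libraries, 0.20 with the block, and -0.51 to 0.24 over omissions. With knockout in low glucose, *C1qtnf1* was at -0.0390 with length-scaled counts and -0.17 to 0.48 over omissions. The difference in the *Fgf9-201* share with knockout in low glucose was -1.89 percentage points as a share of TPM, that with knockout in high glucose -15.44 and that with glucose in *Pcbp2* βKO cells -12.25. Over omissions the first was -1.84 to 3.15, and -4.55 to 3.15 with knockout in high glucose, -0.497 to 1.78 with glucose in control cells and -4.82 to 2.88 in *Pcbp2* βKO cells. Counts of 0 to 11 per library limit what can be said of *Crispld2* within *Pcbp2* βKO cells, and counts of 1 to 14 the same for *C1qtnf1* in low glucose.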
